A study of Mus musculus with 9 samples.

Results

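The genes described here carry out the methionine cycle in mouse embryonic stem cells (mESCs), with Bhmt, which was picked because its signal was high in cells without RING1B and at background in the other cells. The list has 10 genes: Bhmt, Bhmt2, Dmgdh, Mat1a, Mat2a, Mat2b, Ahcy, Mtr, Mtrr and Cbs. A gene was a member if a probe of the deposited series table could be tied to it, which held for 9 of the 10 among 21713 genes measured. Cbs had no probe there and was read from the scan files alone. Bhmt was chosen by its own measured signals in these same arrays, so all values of Bhmt are given as a description with no test, while the other members were tested across all probes.

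RNA levels were measured on 9 arrays, 3 for each of 3 groups of E14Tg2a cells, a male mESC line of strain 129P2/OlaHsd grown with LIF and serum. KO cells are Ring1B -/-, with exon 3 of the RING1B gene (Rnf2) deleted on both alleles, I53A cells are Ring1B I53A/I53A, in which both endogenous alleles encode a RING1B without E3 ligase activity, and WT cells are the parental line. RING1B is a subunit of Polycomb repressive complex 1 (PRC1), which ubiquitinates histone H2A and holds developmental genes silent. The comparisons ask which changes come with loss of the protein and which with loss of its ligase activity alone. The deposited table gives all 3 KO arrays a common name, and no independently derived lines of a genotype are described. The study calls the samples of a group biological replicates and does not say how they were separated, so the p-values measure the spread among these samples, and a line and its mutation cannot be told apart.

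The methionine cycle makes S-adenosylmethionine (SAM), the methyl donor of cells, and remakes methionine from the homocysteine that is left. The methyl group for the last step comes from folate through methionine synthase (Mtr) or, in liver and kidney, from betaine through betaine-homocysteine methyltransferase (Bhmt). Bhmt2, its neighbour and paralogue, takes the methyl group from S-methylmethionine, and Dmgdh breaks down the dimethylglycine that Bhmt releases. Mouse ES cells are known for a high demand for SAM, fed in part by threonine breakdown.

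Bhmt, Bhmt2 and Dmgdh lie side by side on chromosome 13. In GRCm38, Bhmt (minus strand) covers 93616891 to 93637758, Bhmt2 (minus strand) covers 93656097 to 93674302 and Dmgdh (plus strand) covers 93674436 to 93752823. Bhmt2 and Dmgdh are transcribed away from each other, with 133 bases between their first bases, while 18338 bases separate Bhmt from Bhmt2. The starts of the paralogues are shown because PRC1 is known to sit at CpG-rich promoters and these starts differ in that feature. The sequences, from RefSeq (GRCm38.p6, minus strand, 5′ to 3′), run from 250 bases before to 50 bases after the start, with each CpG in capitals.
Bhmt, chr13:93637709-93638008: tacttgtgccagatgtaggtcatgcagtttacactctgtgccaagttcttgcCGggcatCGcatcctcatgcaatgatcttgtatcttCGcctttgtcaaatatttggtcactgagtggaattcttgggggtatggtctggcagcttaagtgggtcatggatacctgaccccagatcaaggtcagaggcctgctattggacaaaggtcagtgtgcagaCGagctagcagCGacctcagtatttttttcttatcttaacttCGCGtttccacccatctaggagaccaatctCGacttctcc
Bhmt2, chr13:93674253-93674552: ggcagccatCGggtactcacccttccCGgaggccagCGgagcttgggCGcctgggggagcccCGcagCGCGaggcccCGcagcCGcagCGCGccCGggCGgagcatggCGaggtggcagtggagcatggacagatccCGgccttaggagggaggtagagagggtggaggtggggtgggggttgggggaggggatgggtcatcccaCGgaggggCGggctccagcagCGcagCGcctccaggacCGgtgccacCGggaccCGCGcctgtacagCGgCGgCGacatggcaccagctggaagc
The Bhmt window held 8 CpG and 48.0% G and C, near the median of 7 CpG over 32851 promoter windows of the same length. The Bhmt2 window held 26 CpG and 73.7% G and C, and 16.9% of all windows held as many CpG. The window of Dmgdh, with 25 CpG, shares 233 bases with it. Promoter windows were found for 9 of the 10 genes, Mat1a being the exception, and those of Mat2a, Mat2b, Ahcy, Mtr, Cbs and Mtrr (2 windows) held between 13 and 39 CpG. The letters CACGTG, the same on both strands, were in the window of Cbs alone among the members and in 7.2% of all windows. The letters GCGGGAA, read on both strands, were in 1 of the 2 Mtrr windows, in no other member's window, and in 4.6% of all windows. These are matches of letters, and no binding was measured here.

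Bhmt was read in KO cells and in neither of the other groups. Its brightest probe in the series table (A_55_P2105180) gave log2 signals of 6.75, 6.68 and 6.85 on the KO arrays, 2.59, 3.17 and 2.72 on the I53A arrays and 2.81, 2.82 and 2.83 on the WT arrays. The 3 KO arrays lay well above background and all 6 other arrays did not, with no overlap between KO and either group. The KO mean was 6.76 ± 0.08, the I53A mean 2.82 ± 0.30 and the WT mean 2.82 ± 0.01 (± SD, n = 3 arrays, here and below). Because the dimmer groups had only a bound, the signal in KO was at least 8.47-fold that in WT and at least 8.73-fold that in I53A. For such a bound, signals under the dimmest well-detected signal of their array were raised to it, and the spread among arrays is not taken in. In these bulk samples a few cells with much Bhmt RNA and many cells with a little cannot be told apart.

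The 4 probes for Bhmt did not all read the same. A second probe of the series table (A_55_P2103969), designed on the Ensembl transcript ENSMUST00000124193, was at background on all 9 arrays, with means of 2.83 ± 0.05 in KO, 2.90 ± 0.21 in I53A and 2.83 ± 0.06 in WT. It took no part in the choice of Bhmt, which rested on the brighter probe. The arrays also hold a pair of probes designed on the RefSeq mRNA that the series table leaves out. Of these, A_55_P2105181 gave 7.04, 7.36 and 8.05 in KO, 4.33, 2.54 and 2.96 in I53A and 2.95, 3.10 and 2.64 in WT, at least 14-fold higher in KO than in WT and at least 10.8-fold higher than in I53A. The last probe, A_55_P2103963, gave 6.18, 5.87 and 5.95 in KO, 4.78, 4.22 and 3.51 in I53A and 5.08, 4.22 and 4.76 in WT. Its KO mean was 2.48-fold the WT mean, with no WT signal dim enough to be raised, and at least 3.38-fold the I53A mean. Thus the 3 probes made for the RefSeq mRNA were above background on the 3 KO arrays and on no other array. Among them, A_55_P2105180 is the probe that the choice of Bhmt rested on, so its pattern was given in advance.

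**Figure D1:**
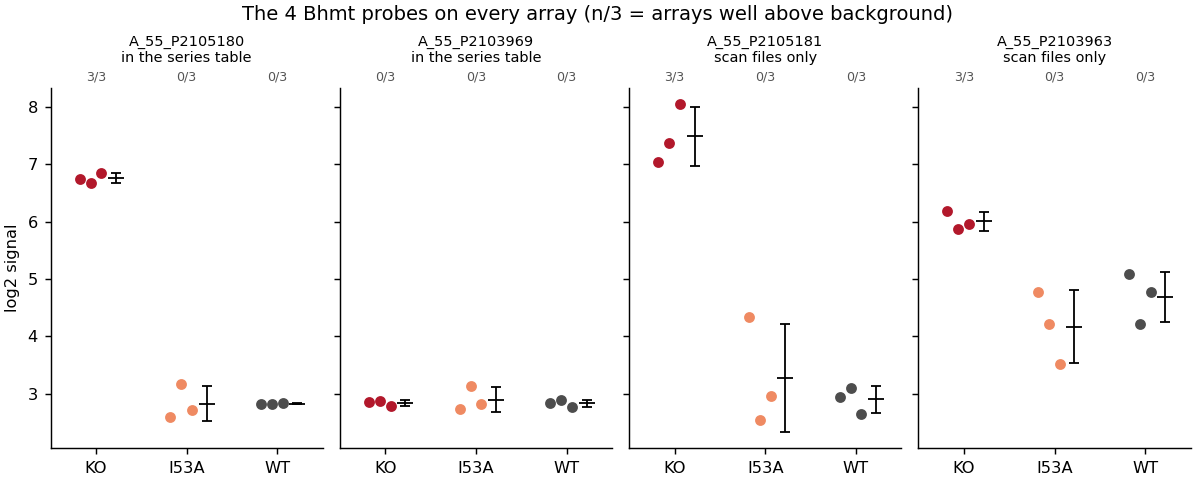
Log2 signal (y axis) of the 4 Bhmt probes on each array of KO, I53A and WT cells (points), with mean and SD (bars, n = 3). The KO points of 3 probes stand above all I53A and WT points, and the probe on ENSMUST00000124193 is at background in every group.

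Markers of other cell types were read beside this. Of 12 primitive endoderm markers, 5 rose in KO against WT (Gata4, Gata6, Sox17, Amn and Col4a1; limma, adjusted p under 0.05 over all probes and more than 2-fold, which is what passing the test means throughout), where 2.92% of all genes rose. In KO against I53A 3 rose (Gata6, Col4a1 and Lama1), where 1.06% of all genes did, but these became 0 without KO 2 or without KO 3 and 1 without any of the I53A arrays. Before adjustment, 8 of the 12 were higher and 1 lower in KO against WT at p under 0.05, where 10% and 8.29% of all genes were. The lower gene was Hnf4a, at 6.04 ± 0.27 in KO, 6.3 ± 0.56 in I53A and 6.86 ± 0.33 in WT. Gata6, a transcription factor of that lineage, averaged 6.88 ± 0.28 in KO, 5.03 ± 0.38 in I53A and 4.78 ± 0.60 in WT. Col4a1, a basement membrane collagen, averaged 8.46 ± 0.41 in KO, 6.68 ± 0.26 in I53A and 5.84 ± 0.30 in WT. Of the 5 called, Gata4 was above background on 2 of 3 KO arrays, Sox17 and Amn on 1 of 3 each, and these on no I53A or WT array. The summed linear signal of the 12 markers ran from 1030 to 1780 on the KO arrays, from 439 to 541 on the I53A arrays and from 463 to 660 on the WT arrays. Bright genes weigh most in such a sum, here Lama1 (9.45 in KO) and Col4a1. Sox7, Foxa2, Dab2 and Pdgfra were at background on all 9 arrays. The 8 trophoblast markers summed to 6450 to 6730 in KO, 11300 to 14200 in I53A and 10100 to 11300 in WT, with Krt18 (12.1 in KO) and Krt8 (10.8) the brightest. Of these 8, 1 passed the test in KO against WT (Eomes, higher). Before adjustment, 1 was higher and 4 lower at p under 0.05. The 7 fibroblast markers summed to 527 to 580 in KO, 530 to 703 in I53A and 471 to 563 in WT, and 1 passed in KO against WT (Thy1, higher; before adjustment, 1 was higher and 3 lower). The call of Eomes was lost on leaving out any of the 9 arrays, and that of Thy1 without WT 1, WT 3 or KO 1. The part of such cells in the Bhmt signal was not tested. Of 15 hepatocyte markers, 14 were measured and none passed the limma test in KO or I53A (0 higher and 1 lower in each at p under 0.05 before adjustment), with sums of 432 to 448 in KO, 438 to 496 in I53A and 416 to 531 in WT. Alb, Apoa1, Apob, Fgg and Afp were among those at background on all 9 arrays. The 9 measured of 10 mESC markers were above background on every array, among them Pou5f1 at 13.2 ± 0.25 in KO, 13.7 ± 0.06 in I53A and 13.4 ± 0.16 in WT, and 1 of them passed in KO against WT. This was Sox2, which fell to 8.06 ± 0.15 in KO against 9.09 ± 0.18 in WT (limma adjusted p = 0.0425), a call lost on leaving out any WT or KO array, or I53A 1. Before adjustment 4 mESC markers were higher and 2 lower in KO against WT at p under 0.05.

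Bhmt2 was highest in KO, intermediate in I53A and at background in WT. Its probe gave 6.92, 7.50 and 7.08 in KO, 5.09, 4.57 and 6.07 in I53A and 3.52, 3.72 and 2.82 in WT. All 6 mutant arrays were well above background and no WT array was, and the 3 groups did not overlap. Of all genes, 12.2% had every KO array above every WT array, 8.72% every I53A array above every WT array and 7.84% every KO array above every I53A array. In KO against WT, Bhmt2 rose by a log2 fold change (log2FC) of 3.81 (SE 0.39, 95% interval 2.95 to 4.68, limma adjusted p = 0.000524). With dim WT signals raised to the limit of their array, the means differed 10.5-fold, a value that takes in no spread. In I53A against WT, the log2FC of 1.89 (95% interval 1.03 to 2.75), 2.75-fold with WT signals raised in the same way, did not pass the test (limma adjusted p = 0.0948). The direct comparison of KO with I53A gave a log2FC of 1.93 (95% interval 1.06 to 2.79) and passed it narrowly (limma adjusted p = 0.044). This last call is not stable: leaving out any of the arrays except I53A 3 raised the adjusted p to between 0.0524 and 0.152. The call in KO against WT was kept with each array left out, and was lost under another background correction alone among the alternatives (log2FC 1.67, limma adjusted p = 0.112). The probes of Bhmt and Bhmt2, each 60 bases long, share no run of letters longer than 5 bases.

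Dmgdh, the mitochondrial dimethylglycine dehydrogenase that starts next to Bhmt2, was not well above background on any array. Its signals were 3.74, 4.84 and 4.87 in KO, 3.34, 3.00 and 2.90 in I53A and 3.31, 3.59 and 2.94 in WT, so the KO arrays lay above all others without being flagged as well above background. Of all genes, 12.2% had every KO array above every WT array and 7.84% above every I53A array. The log2FC in KO against WT was 1.21 (95% interval 0.47 to 1.94) and did not pass the test (limma adjusted p = 0.0774), and in I53A against WT it was −0.20 (−0.93 to 0.54, limma adjusted p = 0.911). Without KO 1, the lowest of the KO arrays, the comparison with WT passed it (log2FC 1.58, limma adjusted p = 0.0177), and so did the comparison with I53A (log2FC 1.77, limma adjusted p = 0.0243). Leaving out any other array instead raised the limma adjusted p against WT, to between 0.092 and 0.231. No fold is given, since neither side was well above background.

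**Figure D2:**
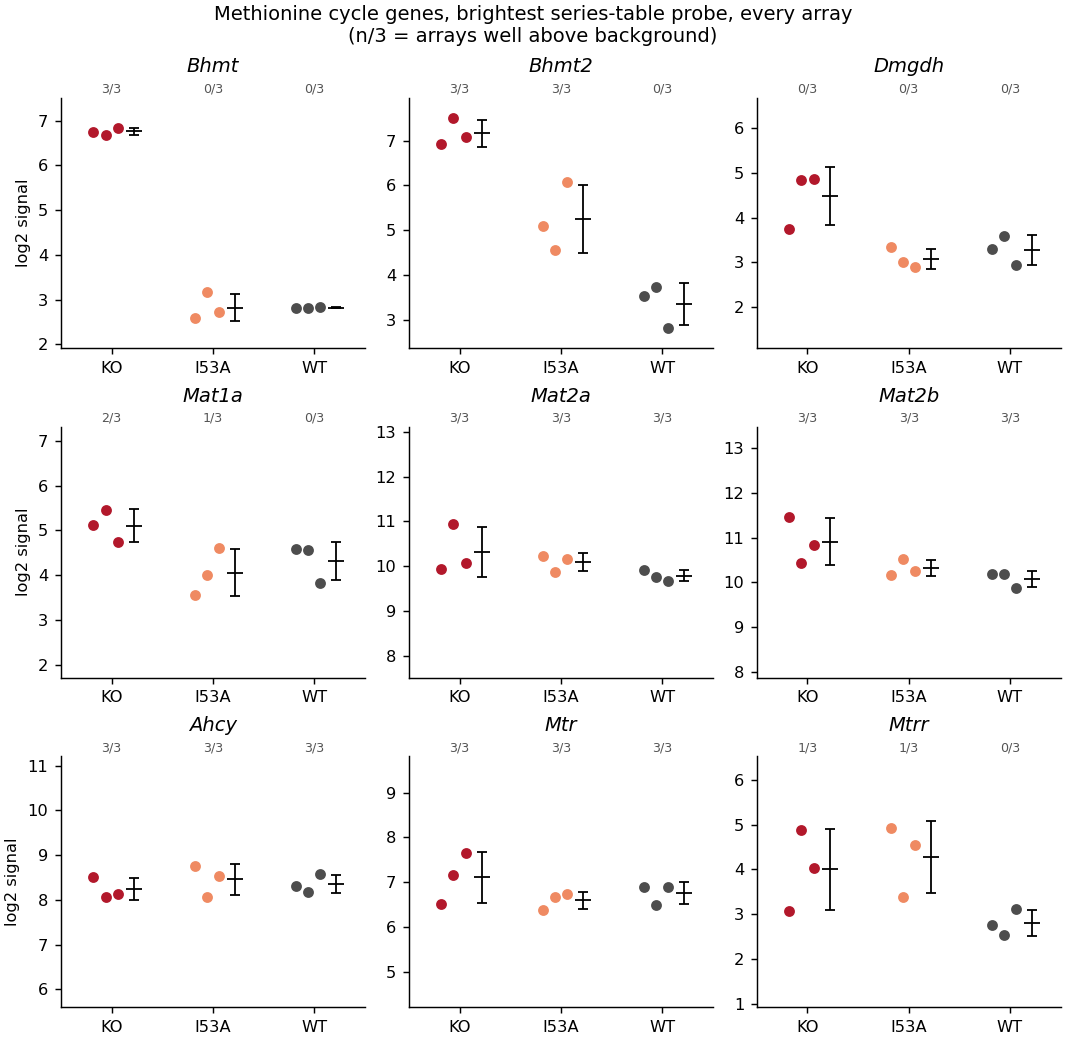
Log2 signal (y axis, each panel spanning the same number of log2 units) of the 9 members on every array of KO, I53A and WT cells, with mean and SD (bars, n = 3) and the number of arrays well above background on top. Bhmt stands out in KO alone, Bhmt2 steps down from KO through I53A to WT, and Mat2a, Mat2b, Ahcy and Mtr were detected on all arrays.

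The methionine adenosyltransferases, which make SAM, did not pass the test in any comparison. Mat1a (chromosome 14, 41105012 to 41124428), the catalytic subunit of adult liver, gave 5.13, 5.46 and 4.73 in KO (2 of 3 arrays above background), 3.57, 4.0 and 4.61 in I53A (1 of 3) and 4.58, 4.56 and 3.82 in WT (0 of 3). The log2FC of Mat1a was 0.79 in KO against WT (95% interval 0.04 to 1.54, limma adjusted p = 0.256). No fold is given, since not all KO arrays and no WT array were above background. The KO arrays lay above all I53A arrays (log2FC 1.05, 0.30 to 1.80, limma adjusted p = 0.225), as held for 7.84% of all genes. Mat2a (chromosome 6, 72432796 to 72439556), the catalytic subunit of most other cells, gave 9.93, 10.9 and 10.1 in KO, 10.2, 9.86 and 10.2 in I53A and 9.92, 9.76 and 9.68 in WT. The log2FC of Mat2a was 0.53 in KO against WT (−0.11 to 1.16, limma adjusted p = 0.388) and 0.30 in I53A against WT (−0.34 to 0.93, limma adjusted p = 0.8), and a second Mat2a probe had smaller differences, of 0.21 and 0.05. Mat2b, the regulatory subunit, gave 11.47, 10.4 and 10.8 in KO, 10.2, 10.5 and 10.3 in I53A and 10.2, 10.2 and 9.88 in WT. All KO values of Mat2b lay above all WT values, as held for 12.2% of all genes, and the log2FC of 0.82 (0.19 to 1.45) did not pass the test (limma adjusted p = 0.153). Mat2b lies on chromosome 11 (40679314 to 40695203), whose measured genes had a median log2FC of 0.22 in KO against WT and −0.01 in I53A against WT, where all genes had −0.02 and −0.01; the part of this shift in the value of Mat2b was not tested. On chromosome 13, which holds Bhmt, the medians were −0.04 and −0.002.

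Ahcy (chromosome 2, 155059310 to 155074497) hydrolyses S-adenosylhomocysteine, the product of methyl transfer, and its 3 probes differed. The series-table probe, tied to Ahcy by its start site, gave 8.51, 8.06 and 8.14 in KO, 8.75, 8.07 and 8.54 in I53A and 8.30, 8.18 and 8.57 in WT, with a log2FC of −0.11 in KO (−0.67 to 0.45, limma adjusted p = 0.879) and 0.10 in I53A (−0.46 to 0.66, limma adjusted p = 0.942). The 3 groups overlapped. The probes left out of that table, both made for the RefSeq mRNA, were not tested and ran higher in the mutants. A_52_P176160 averaged 11.52 ± 0.17 in KO, 11.3 ± 0.39 in I53A and 10.8 ± 0.24 in WT, and A_55_P2031100 averaged 10.6 ± 0.31 in KO, 10.2 ± 0.03 in I53A and 9.46 ± 0.37 in WT. On both, every KO array lay above every WT array, by a mean log2 difference of 0.726 and 1.102. The same order of arrays held for 12.2% of all genes of the series table.

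Remethylation through folate showed no call. Mtr (chromosome 13, 12181331 to 12258199), methionine synthase, gave 6.51, 7.16 and 7.65 in KO, 6.38, 6.66 and 6.74 in I53A and 6.89, 6.48 and 6.89 in WT on its brighter probe, with a log2FC of 0.35 in KO (−0.32 to 1.01, limma adjusted p = 0.61) and −0.16 in I53A (−0.83 to 0.50, limma adjusted p = 0.921). The other Mtr probe had the opposite sign in KO (log2FC −0.25, limma adjusted p = 0.691), so no direction is given. Mtrr (chromosome 13, 68560780 to 68582169), the reductase that keeps the cobalamin of Mtr active, was near the detection limit, with 3.07, 4.89 and 4.04 in KO, 4.92, 3.38 and 4.54 in I53A and 2.77, 2.54 and 3.11 in WT. It was above background on 1 KO array, 1 I53A array and no WT array, with a log2FC of 1.197 in KO against WT (0.12 to 2.28, limma adjusted p = 0.232) and 1.48 in I53A against WT (0.40 to 2.56, limma adjusted p = 0.354). With most of its arrays not well above background, no fold is given. Cbs (chromosome 17, 31612623 to 31637233), which takes homocysteine out of the cycle into cysteine synthesis, gave 7.16, 7.78 and 8.01 in KO, 7.33, 8.17 and 7.92 in I53A and 7.25, 7.13 and 7.16 in WT on its only probe, which was not tested.

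Among the 8 other measured members as a group, 1 passed the test in KO against WT (Bhmt2, higher), 0 in I53A against WT, and 1 in KO against I53A (Bhmt2 again). Over all genes, 4.09% passed in KO against WT (2.92% higher, 1.17% lower), 0.401% in I53A against WT (0.29% higher, 0.111% lower) and 1.46% in KO against I53A (1.06% higher, 0.405% lower). Before adjustment, at a limma p under 0.05, 5 of the 8 were higher and 0 lower in KO against WT, where 10% of all genes were higher and 8.29% lower. These were Bhmt2, Dmgdh, Mat1a, Mat2b and Mtrr. Dmgdh was above background on no array, Mtrr on 1 of 3 KO arrays and Mat1a on 2 of 3, and both on no WT array. Bhmt2 and Dmgdh lie beside Bhmt, the gene picked for its values. In I53A against WT 2 of the 8 were higher (Bhmt2 and Mtrr) and 0 lower, against 5.83% and 3.94% of all genes. In KO against I53A 3 were higher (Bhmt2, Dmgdh and Mat1a) and 0 lower, against 6.33% and 5.38%. The median log2FC of the 8 was 0.81 in KO against WT, or 0.53 with dim members at their bound and Dmgdh left out, against −0.02 over all genes either way. It was 0.17 in I53A against WT (0.24 with bounds) and 0.55 in KO against I53A (0.51 with bounds). KO and I53A share their WT arrays, so the first pair of medians is not independent, and the list was put together with these data known.

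**Figure D3:**
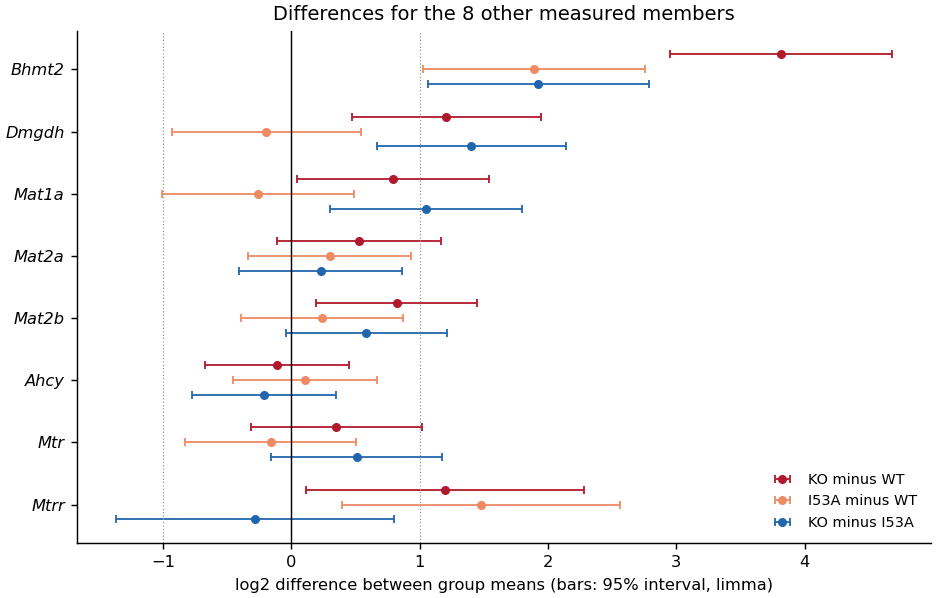
Log2 difference between group means (x axis) for the 8 members other than Bhmt in KO minus WT, I53A minus WT and KO minus I53A, with 95% intervals from limma (bars) and dotted lines at a 2-fold change. Bhmt2 in KO minus WT, at 3.81, lies above all other values, the next being Bhmt2 in KO minus I53A at 1.93.

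Changes at the Bhmt locus were read gene by gene within 1 Mb of its start. Besides Bhmt, Bhmt2 and Dmgdh, 12 measured genes start there, and none passed the limma test in any comparison. Of all genes, 4.09% passed in KO against WT, 0.401% in I53A against WT and 1.46% in KO against I53A, so few calls would be looked for among 12. At an unadjusted p under 0.05, 1 was lower in KO against WT, where 8.29% of all genes were. In I53A against WT 1 was higher, against 5.83% of all genes, and in KO against I53A 1 was higher, against 6.33%. The nearest detected genes are Jmy, a regulator of actin assembly, at −138.2 kb, and Arsb, the lysosomal arylsulfatase B, at 133.7 kb in rising coordinates. Jmy averaged 6.79 in KO, 7.06 in I53A and 6.59 in WT, and Arsb 5.76 in KO, 5.83 in I53A and 5.77 in WT. The Jmy probe (A_30_P01027139) is of the array's long non-coding RNA series, and whether it reads the Jmy mRNA was not tested. The largest difference among the 12 in KO against WT was −0.72 (Mtx3, limma adjusted p = 0.165), and their median was 0.02. Within this window, then, Bhmt2 was the only tested gene that passed in KO against WT.

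**Figure D4:**
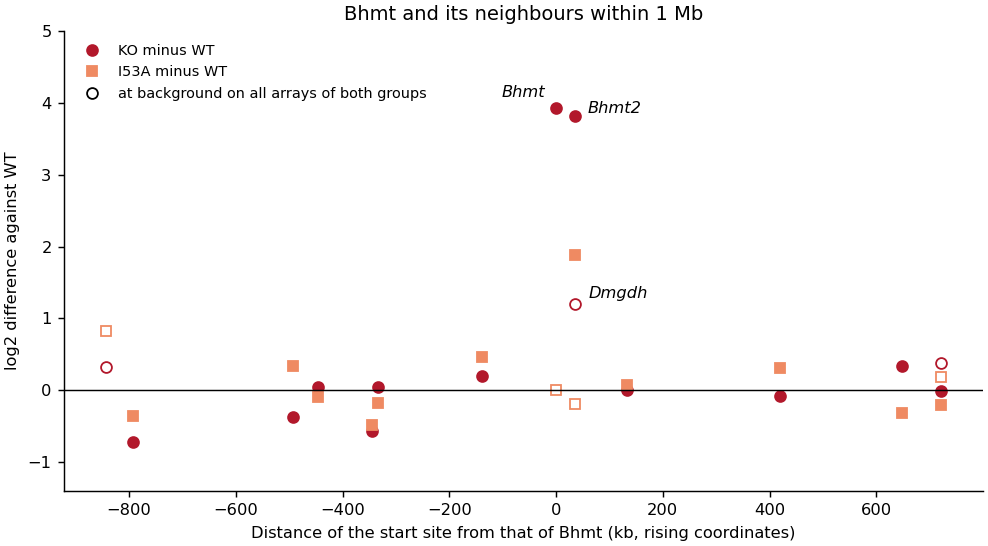
Log2 difference against WT (y axis) for KO (circles) and I53A (squares) of the 15 genes that start within 1 Mb of Bhmt, by distance from its start in kb (x axis). Open symbols were at background on all arrays of both groups; Bhmt and Bhmt2 in KO lie at 3.94 and 3.81, and the 12 outer genes lie between −0.72 and 0.82.

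The likeness of other genes to Bhmt was measured as Pearson's r of log2 signal over the 9 arrays, a description in which the 3 groups set most of the variation. Of 12522 genes detected in all arrays of at least 1 group, the 5 most alike were Gstp3 (r = 0.993), a glutathione S-transferase, Ifi27 (0.990), an interferon-induced gene, Gm9 (0.987), Fam25c (0.984) and Olfr392 (0.983), an olfactory receptor gene. Ifi27 averaged 9.32 ± 0.41 in KO, 5.05 ± 0.11 in I53A and 5.17 ± 0.13 in WT, and Gm9 averaged 8.85 ± 0.33 in KO, 3.27 ± 0.40 in I53A and 2.99 ± 0.24 in WT. These genes lie on other chromosomes. Bhmt2 was at rank 553 (r = 0.821), and the r of the remaining members ran from −0.376 (Ahcy) to 0.852 (Dmgdh).

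Pathways that feed or drain the cycle were read from 9 lists of 82 genes, of which 77 were measured. In KO against WT 1 rose and 1 fell, where 2.92% and 1.17% of all genes did, in I53A against WT 0 rose and 1 fell, where 0.29% and 0.111% did, and in KO against I53A none passed the limma test. At p under 0.05 before adjustment, 7 were higher and 7 lower in KO against WT, where 10% and 8.29% of all genes were. In I53A against WT 1 was higher and 4 lower, against 5.83% and 3.94% of all genes. In KO against I53A 6 were higher and 2 lower, against 6.33% and 5.38%. The median log2FC was −0.07 in KO against WT and −0.03 in I53A against WT, close to that of all genes. Apip, an enzyme of the methionine salvage pathway, rose in KO, with 9.75, 9.52 and 9.16 against 8.39, 8.56 and 8.17 in WT (log2FC 1.104, limma adjusted p = 0.0265), and averaged 8.59 ± 0.14 in I53A. Mthfd1l, which makes formate from mitochondrial folate, fell in KO, with 7.28, 7.53 and 7.41 against 8.28, 8.41 and 8.74 in WT (log2FC −1.07, limma adjusted p = 0.0221), and averaged 8.24 ± 0.12 in I53A. Mthfd2, the mitochondrial methylene-folate dehydrogenase, fell in I53A, with 4.85, 5.38 and 5.72 against 7.12, 7.63 and 6.98 in WT (log2FC −1.93, limma adjusted p = 0.0391). It averaged 6.34 ± 0.41 in KO (log2FC −0.91 against WT, limma adjusted p = 0.154), and the KO and I53A values of Mthfd2 did not differ past the test (limma adjusted p = 0.197). Each of the 3 calls was lost on leaving out any WT array. Apip was also lost without KO 1 or KO 2 (limma adjusted p of 0.0558 to 0.105 over these 5 arrays), Mthfd1l without any KO array (0.0505 to 0.0927 over 6) and Mthfd2 without KO 2 or any I53A array (0.0705 to 0.139 over 7). The lists of choline and betaine (10 measured), of transsulfuration (8), of cobalamin (9), of glycine, serine and threonine (7), of small-molecule methyltransferases (10), of other SAM and S-adenosylhomocysteine (SAH) genes (3) and of methionine transport (5) had no gene past the test in any comparison. The choline and betaine genes, a list not limited to those that supply betaine, had a median log2FC of −0.36 in KO against WT, with a range of −0.70 to 1.08.

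**Figure D5:**
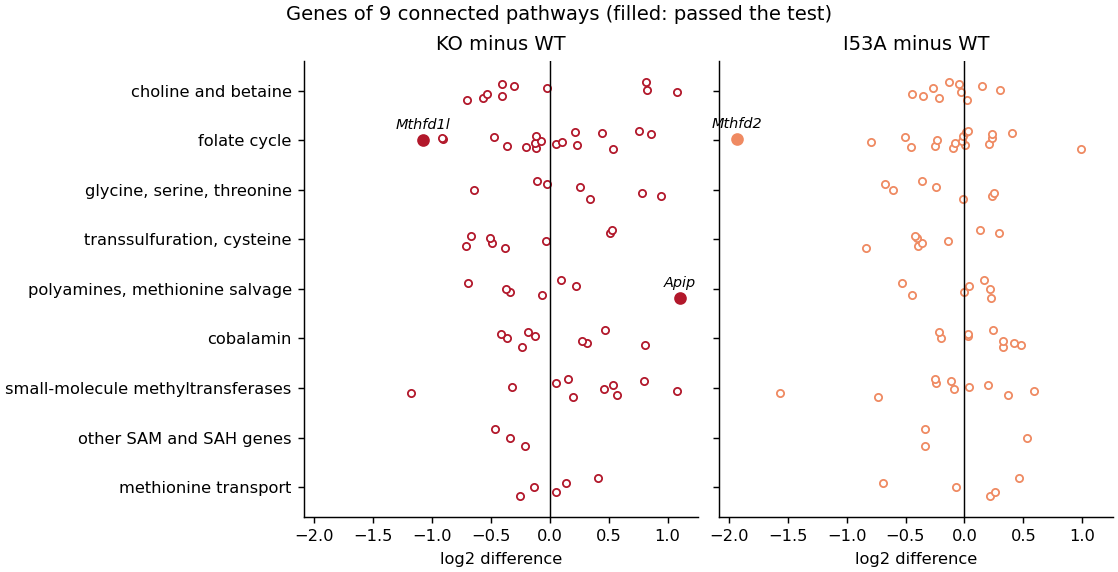
Log2 difference (x axis) in KO minus WT (left) and I53A minus WT (right) for each measured gene (point) of 9 lists (rows). Filled points passed the test: Mthfd1l and Apip in KO, and Mthfd2 in I53A.

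The arrays themselves were alike in quality, with 45.4% to 57.5% of the tested probes well above background and correlations of 0.958 to 0.972 within groups. Rnf2 averaged 7.78 ± 0.39 in KO, 8.79 ± 0.27 in I53A and 8.35 ± 0.11 in WT (KO against WT log2FC −0.57, limma adjusted p = 0.288), and since its probe was not placed on the transcript, where exon 3 is missing in KO, this does not check the labels. The arrays lay on 2 slides, each of which held all 3 groups, and on slide 1 alone the log2FC of Bhmt2 in KO against I53A was 2.46 (limma adjusted p = 0.0551). On the slides a column held arrays of 1 group alone, and the effect of a column cannot be told apart from that of its genotype.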

How the data were processed

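Cy3-labelled RNA of 9 mESC samples was hybridised to 1-colour Agilent SurePrint G3 arrays. In the deposited scan files the authors give a processed fluorescence intensity per spot (linear, background-subtracted by Feature Extraction). In the deposited series table the authors give log2 values after probe averaging and quantile normalisation, in columns that name a group but no replicate; the authors' fold changes and p-values there were not used. Build mm10 is named in the submitters' processing notes.

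Here control spots and those flagged as outliers were dropped. Intensities were taken to log2, averaged over repeats of a probe, and quantile normalised over 55681 probes. Those 30170 that the authors kept in their table were fitted with limma 3.58.1 in R 4.3.3 (1 mean per group, 6 residual degrees of freedom, two-sided moderated tests), with Benjamini-Hochberg adjustment over all of them. To pass, a probe had to change more than 2-fold with an adjusted p under 0.05. Gene symbols came from RefSeq (GRCm38.p6), by the probe's accession or symbol (24558 probes), its Ensembl gene (2371) or a start site within 100 bases (788), and the brightest probe stood for a gene. The steps were tested on simulated data. The number of arrays and the signal over background limit the precision.

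The members, gene lists and alternatives were chosen with earlier results of these data known. Named genes were all members, genes starting within 1 Mb of Bhmt, pathway genes that passed, the 5 genes most like Bhmt, and Rnf2; Gata6, Col4a1, Lama1, Eomes, Thy1, Sox2 and the other cell type markers named were chosen after their values were seen. Figures were drawn with matplotlib 3.10.9.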

Additional observations from a re-analysis of the deposited data

Results flagged for a closer look

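Bhmt2 differed between the mutants, with a KO minus I53A log2FC of 1.93 (limma adjusted p = 0.044, higher in 3 of 3 KO arrays than in any I53A array). Signal was found for Bhmt on 2 probes that the series table leaves out, with KO means of 6.001 and 7.485, while no I53A or WT array was above background on either probe.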

How the results depend on the processing

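The members' values, the counts of calls and the named calls were recomputed under up to 11 other settings and with each array left out; those for the pathway and marker lists, the neighbours and the genes named from them were chosen after seeing the data. No value changed sign past its threshold. Bhmt stayed higher in KO than in WT throughout, by 1.41 (normexp background correction, offset 50) to 3.98 on the log2 scale, and by 1.97 where its 2 series-table probes were averaged. Normexp was run on the median signals, since the scan files used here hold no mean signals. The count of other members past the test in KO against WT was 1, and became 0 with normexp, 2 with slide as a block (Bhmt2 and Dmgdh), and 1 to 2 with an array left out. In I53A against WT it was 0, became 1 (Bhmt2, adjusted p = 0.0271) when dim probes were left out, and was 0 with any array left out. In KO against I53A it was 1, became 0 with normexp, on slide 1 alone and with only the 2 groups compared, and was 0 to 1 with an array left out; with slide as a block Dmgdh (adjusted p = 0.0352) took the place of Bhmt2 (0.0725).

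The pathway genes past the test in KO against WT numbered 2, and became 0 with normexp or on slide 1 alone, 1 with only the 2 groups compared, 4 when dim probes were left out, and 0 to 2 with an array left out. With 75th percentile scaling they were still 2, Mthfd1l giving way to Coq5, and with all probes of a gene averaged they were 3 (Mthfd1l, Sms and Pemt). In I53A against WT they numbered 1, and became 0 with 75th percentile scaling, normexp, slide as a block, slide 1 alone or only the 2 groups compared, and 0 to 1 with an array left out. In KO against I53A they numbered 0 and became 1 (Pemt) with all probes averaged. The 5 primitive endoderm calls became 2 with normexp (Gata6 and Col4a1), 3 with dim probes left out or on slide 1 alone, and 4 to 6 with an array left out, and the 3 in KO against I53A became 2 with normexp, 0 on slide 1 alone and 0 to 3 with an array left out. Of 20 alternatives, Sox2 kept its call in 8, Eomes in 5 and Thy1 in 15. No hepatocyte marker or neighbour of Bhmt passed in any of them. The cause of these changes was not tested.

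Samples with the same replicate number did not deviate together (correlations of −0.271 to 0.222 over 9 pairs, against −0.201 to 0.281 over 18 pairs with different numbers), so they share only a number. With a replicate block the member count was 1 in KO against WT, 0 in I53A against WT and 0 in KO against I53A (Bhmt2 adjusted p = 0.126), and no pathway gene passed in any of the 3 comparisons (0 in each). The 3 primitive endoderm calls in KO against I53A also became 0 with it. Over all probes, 824 rose and 335 fell in KO against WT, against 233 and 93 with normexp and 290 and 42 on slide 1 alone. Signals near background have a bound only, and 3 arrays per group limit what can be called.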
